A study of Homo sapiens with 28 samples.

Results

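Gene expression in cultures of Hep3B, a human liver carcinoma line, was compared with that in cultures of HepG2, HuH7 and PLC/PRF/5. The comparison took the 3 Hep3B culture libraries against the mean of the other 3 lines, each line weighted equally and each given by 3 culture libraries. These are 12 of the 28 libraries of the series, the other 16 being tumours of the same 4 lines grown in ovo, on the membrane of fertilised eggs. The labels call all 4 lines hepatoma lines and name no treatment of the culture groups beyond growth in vitro. Each group is 1 cell line, so a difference is one between these lines, and the spread within a group is that of 3 libraries of the same line. The labels do not say that replicates came from separate cultures, so a p-value sets a difference against a spread that can be purely technical. Of the 18961 amplicons of the targeted panel, which reads 1 short stretch per gene, 17361 lay wholly in coding sequence, and 12377 passed the filter on low reads in the cultures and were tested.

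Hep3B carries integrated hepatitis B virus DNA and is known for secreting erythropoietin. PLC/PRF/5 and HuH7 also come from liver carcinomas, and HepG2 from a hepatoblastoma, a tumour of the embryonic liver. Hepatocytes secrete most plasma proteins, and hepatoma lines keep this program to unequal degrees. RB is a tumour suppressor that holds back the E2F factors, which drive entry into DNA replication.

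The library depths of the cultures were 6205368 to 8662998 reads. Levels are given as CPM, a library's reads on a fixed total after TMM scaling, and 3 reads, the floor used here, equal 0.346 to 0.483 CPM before that scaling. Replicates correlated at r = 0.990 to 0.996 over genes, which are not independent replicates. PLC/PRF/5 replicate 2 stood apart from its group: the chi-square per degree of freedom was 9.90 or more in its pairs, and 3.95 or less in the other replicate pairs. Hepatocyte markers summed to 54170 to 56820 CPM in Hep3B, 116900 to 128200 in HepG2 and 17800 to 18150 in HuH7, but to 29.78 to 37.76 in PLC/PRF/5. The PLC/PRF/5 cultures thus lacked the defining markers of hepatocytes on this panel, and this bears on the liver lists below. Not every liver gene was low there. With all 28 libraries scaled together, CPS1, of the urea cycle, averaged 1098 ± 55.1 CPM in PLC/PRF/5 cultures and 6.1 ± 0.369 in Hep3B cultures. In Hep3B the marker sums reached 2.42 CPM for endothelial cells, 18.5 for fibroblasts, 40.1 for leukocytes and 0.395 for stratified epithelium.

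Across all genes, 9127 (73.7%) were called different at an adjusted p under 0.05 in limma's test, 4601 (37.2%) higher and 4526 (36.6%) lower in Hep3B. A call on its own therefore says little about a gene. Against HepG2, 4539 (36.7%) were called higher and 4284 (34.6%) lower, and against HuH7 4167 (33.7%) and 4254 (34.4%). Against PLC/PRF/5, whose calls were the most numerous, they were 4911 (39.7%) and 4487 (36.3%). These 3 contrasts share the Hep3B libraries. By at least 2-fold, 1574 genes (12.7%) were called higher and 1493 (12.1%) lower. Genes were counted as standing apart where, besides such a call, all 3 Hep3B libraries lay above or below the 9 others: 938 (7.58%) were above and 640 (5.17%) below. Without the call and the fold, 1599 genes (12.9%) lay above and 1178 (9.52%) below. The median difference over all genes was 0.01 on the log2(CPM + 1) scale, the scale of every difference below. Scaling by total reads alone moved it by -0.098 and changed the calls to 3968 higher and 5099 lower. Across the genes tested, the mean Hep3B profile correlated with that of HuH7 at r = 0.865, with that of HepG2 at 0.82 and with that of PLC/PRF/5 at 0.715. These 3 values share the Hep3B libraries and describe the profiles only.

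**Figure D1:**
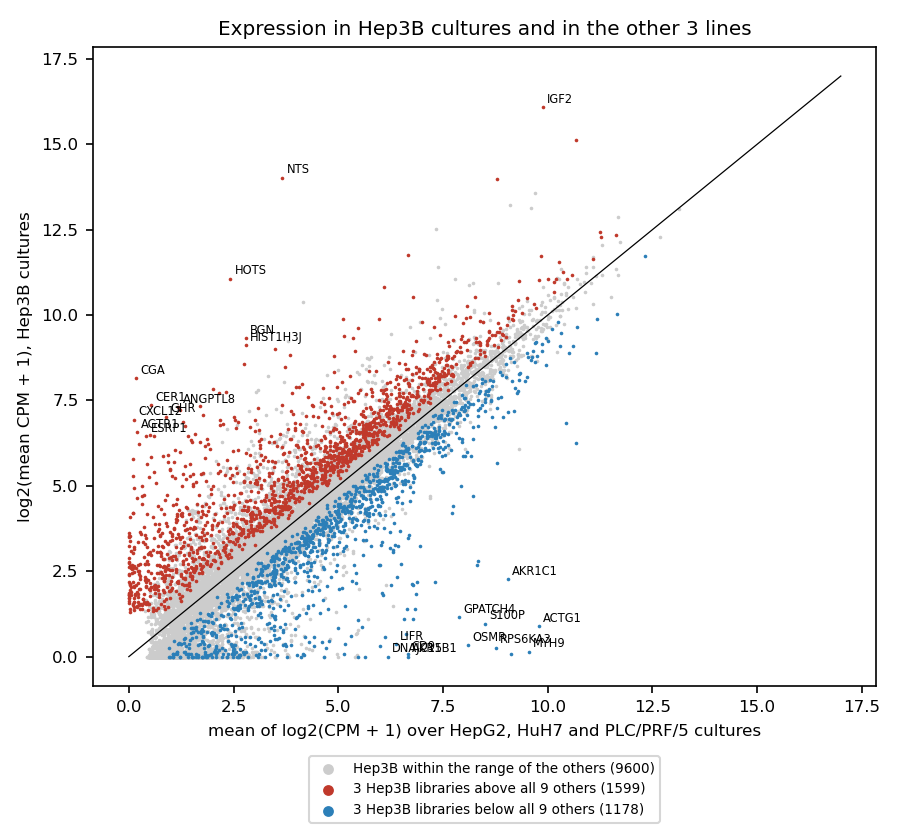
Each point is 1 of the 12377 genes tested, with the mean over the 3 other lines of log2(CPM + 1) on the x axis and the Hep3B culture level on the y axis. Red marks 1599 genes with all 3 Hep3B libraries above the 9 others and blue 1178 genes with all 3 below; 12 genes highest and 11 lowest in Hep3B by the naming rule are labelled.

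The amplicons below are those of genes standing highest (NTS, CGA and CER1) and lowest (MYH9, ACTG1 and RPS6KA3) among those placed in coding sequence, shown because each level rests on this stretch alone. All lie in coding sequence, placed on GRCh38 through GENCODE 29 transcripts, and are printed along the transcript, 5′ to 3′. Capitals mark the second exon of an amplicon that spans more than 1.
NTS: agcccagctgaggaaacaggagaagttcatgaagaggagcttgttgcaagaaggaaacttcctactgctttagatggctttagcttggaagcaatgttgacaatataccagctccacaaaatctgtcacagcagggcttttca
CGA: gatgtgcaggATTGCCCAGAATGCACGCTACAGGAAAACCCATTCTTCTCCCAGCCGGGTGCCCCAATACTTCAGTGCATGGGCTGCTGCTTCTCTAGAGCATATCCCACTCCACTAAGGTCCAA
CER1: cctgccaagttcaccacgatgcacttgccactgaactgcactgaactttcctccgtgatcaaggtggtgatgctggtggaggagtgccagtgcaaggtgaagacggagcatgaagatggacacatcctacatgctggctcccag
MYH9: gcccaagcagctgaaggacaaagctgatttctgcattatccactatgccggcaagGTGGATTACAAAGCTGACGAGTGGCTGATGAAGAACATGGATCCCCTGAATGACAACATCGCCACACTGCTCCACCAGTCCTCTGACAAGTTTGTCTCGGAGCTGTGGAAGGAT
ACTG1: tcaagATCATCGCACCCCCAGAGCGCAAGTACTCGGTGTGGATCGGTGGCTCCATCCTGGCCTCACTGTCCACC
RPS6KA3: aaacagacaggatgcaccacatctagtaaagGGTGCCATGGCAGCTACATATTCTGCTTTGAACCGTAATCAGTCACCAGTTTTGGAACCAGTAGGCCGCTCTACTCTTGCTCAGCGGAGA
NTS lies within exon 3 at chr12:85878417-85878559 (plus strand) and CER1 within exon 2 at chr9:14720120-14720263 (minus strand). CGA spans exons 2 and 3 at chr6:87086320-87088122, MYH9 exons 14 and 15 at chr22:36309283-36312103, ACTG1 exons 5 and 6 at chr17:81510765-81510931 and RPS6KA3 exons 21 and 22 at chrX:20155431-20156139, all on the minus strand. A transcript that is absent and one whose amplicon is not read for another reason give the same value.

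The genes that stood highest in Hep3B were mostly secreted peptides and receptors, many of them near zero in the other lines. NTS, the precursor of the gut peptide neurotensin, was at 17094, 16343 and 16572 CPM in the 3 Hep3B libraries. It was at 1277, 1338 and 1344 CPM in HuH7, and at most 6 reads in any HepG2 or PLC/PRF/5 library. Every Hep3B library was far above the highest HuH7 library, and the difference from the mean of the lines was 10.36 (SE 0.07, adjusted p = 6.7e-20). CGA, the alpha subunit shared by the glycoprotein hormones, had 1780, 1842 and 2115 reads in Hep3B and 0 to 3 reads in each of the 9 other libraries. CER1, a secreted antagonist of Nodal and BMP signals, had 1026, 1053 and 1245 reads in Hep3B. Its highest other library, of HepG2, had 11 reads, so the groups did not overlap. The chemokine CXCL12 had 738, 814 and 896 reads in Hep3B and 0 to 2 elsewhere. The differences were 6.85 for CER1 and 6.82 for CXCL12, with that of CGA between those of NTS and CER1.

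Receptors and matrix genes followed. GHR, the growth hormone receptor, was at 131, 130.4 and 128 CPM in Hep3B against 4.07, 5.03 and 5.1 in HuH7 and 2 reads or fewer in each HepG2 and PLC/PRF/5 library. AGTR1, the type 1 angiotensin receptor, averaged 93.5 ± 4.63 CPM in Hep3B and 0.425 ± 0.23 or less in each other line. BGN, a small matrix proteoglycan, averaged 645 ± 52.9 CPM in Hep3B, 34.9 ± 7.43 in HepG2, 7.42 ± 0.402 in HuH7 and 0.0848 ± 0.0746 in PLC/PRF/5. ANGPTL8, a secreted regulator of lipoprotein lipase, averaged 156 ± 1.4 CPM in Hep3B and 10.8 ± 1.03 in HepG2, with 0 in HuH7 and PLC/PRF/5. The replication-dependent histone gene HIST1H3J averaged 555 ± 52.4 CPM in Hep3B and 11.9 ± 1.69 in PLC/PRF/5, the next highest line. ESRP1, a splicing factor of epithelial cells, averaged 87.6 ± 4.4 CPM against 0.839 ± 0.169 in HuH7. The differences of these 6 genes ran from 6.06 (ESRP1) to 6.56 (BGN). HOTS, named for a transcript opposite H19, averaged 2146 ± 139 CPM in Hep3B and 89.8 ± 35.4 in PLC/PRF/5, with a difference of 8.67, between those of NTS and CGA, but its amplicon was not placed on an annotated transcript.

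**Figure D2:**
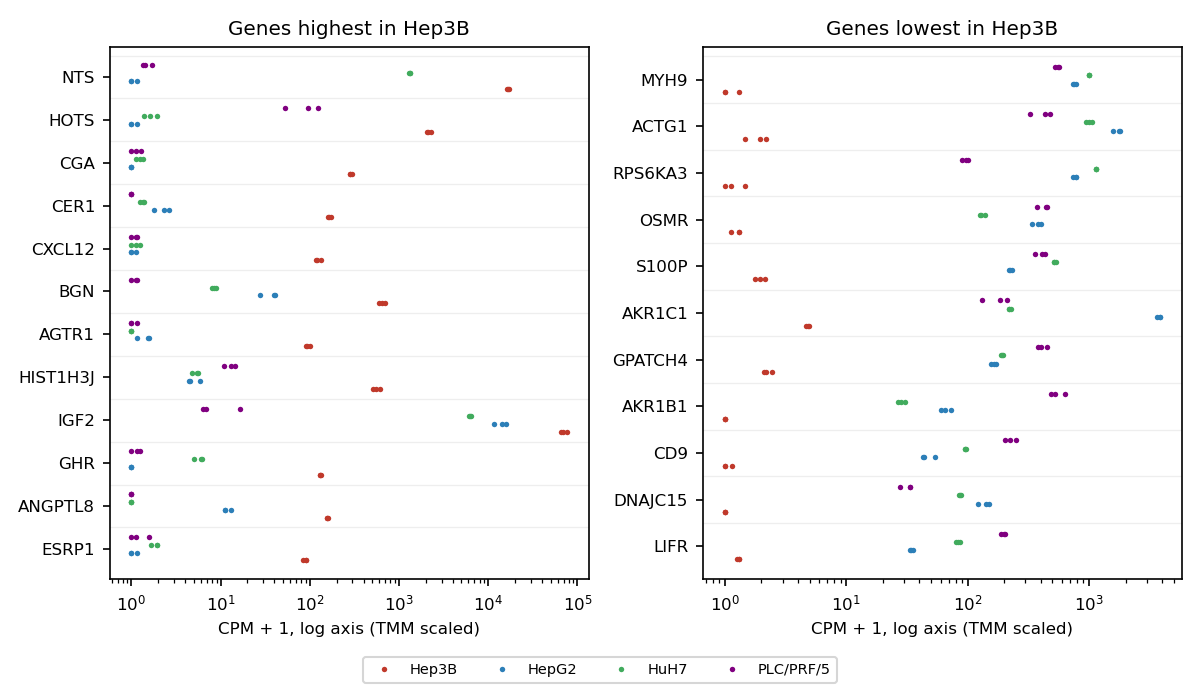
CPM + 1 on a log axis in every culture library (3 points per line) for 12 genes highest and 11 lowest in Hep3B. The 3 Hep3B points lie outside the range of the 9 others for each gene, which the naming rule required; NTS and IGF2 are also read well in HuH7.

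The genes lowest in Hep3B included cytoskeletal genes that most cells express, read at or near the floor. MYH9, the heavy chain of non-muscle myosin IIA, had 0, 2 and 0 reads in Hep3B against 3704 to 8304 in the others. ACTG1, which encodes cytoplasmic gamma actin, had 3, 6 and 9 reads in Hep3B and 3684, 2864 and 3413 in PLC/PRF/5, the lowest of the other lines. For such widely used genes, loss of the transcript and failure to read this amplicon cannot be told apart. RPS6KA3, a kinase downstream of ERK, averaged 0.2 ± 0.242 CPM in Hep3B and 94.8 ± 5.14 in PLC/PRF/5, the lowest other line. S100P, a calcium-binding protein, averaged 0.953 ± 0.171 CPM in Hep3B, 223 ± 8.17 in HepG2, 519 ± 9.2 in HuH7 and 403 ± 38.1 in PLC/PRF/5. CD9, a tetraspanin of the cell surface, averaged 0.0522 ± 0.0904 CPM in Hep3B and 45.7 ± 6.12 in HepG2. GPATCH4 averaged 1.25 ± 0.187 CPM in Hep3B and 163 ± 7.3 in HepG2. The differences were -9.41 for MYH9, -8.90 for ACTG1, -8.53 for RPS6KA3, -7.53 for S100P, -6.72 for GPATCH4 and -6.58 for CD9. Where Hep3B has next to no reads, such a difference depends on the pseudocount of 1 CPM.

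RB1 was low in Hep3B, while several drivers of the G1/S step were high. RB1 was at 2.35, 3.39 and 2.11 CPM in Hep3B, 79.4, 77.5 and 74.2 in HepG2, 73.4, 86.1 and 77.9 in HuH7 and 44.1, 47.5 and 45.5 in PLC/PRF/5. No Hep3B library came near the others, and the difference was -4.21 (SE 0.09, adjusted p = 1.1e-14). The related pocket protein RBL2 averaged 17 ± 1.66 CPM in Hep3B and 46.2 ± 4.3 or more in each other line. CDKN2A, which encodes the CDK inhibitor p16 and ARF, averaged 263 ± 10.6 CPM in Hep3B, 9.01 ± 1.08 in HepG2, 34.1 ± 0.974 in HuH7 and 398 ± 63 in PLC/PRF/5. It was thus above every HepG2 and HuH7 library and below every PLC/PRF/5 library (-0.58 against PLC/PRF/5). CDKN1A, the p21 inhibitor of cell cycle kinases, was at 5.95, 5.82 and 4.48 CPM in Hep3B. It was at 427, 682 and 676 CPM in HepG2, 85.3, 83.2 and 70.4 in HuH7 and 751, 434 and 824 in PLC/PRF/5. All 9 were above every Hep3B library, and the difference was -5.61 (SE 0.17, adjusted p = 6.3e-13). CDK4, the G1 kinase that phosphorylates RB, averaged 883 ± 13.1 CPM in Hep3B, 308 ± 6.61 in HepG2, 327 ± 13.9 in HuH7 and 436 ± 47.1 in PLC/PRF/5. TFDP1, the partner of E2F factors, averaged 1064 ± 52.6 CPM in Hep3B, 278 ± 16 in HepG2, 273 ± 5.35 in HuH7 and 768 ± 128 in PLC/PRF/5. CCND1, cyclin D1, was not called against the mean, with a difference of -0.08 (SE 0.07, adjusted p = 3.0e-01). That value averages opposite differences: -0.999 against HepG2, -0.409 against HuH7 and 1.16 against PLC/PRF/5. Each of these was called (adjusted p = 8.0e-04 or less in limma's test). CCND1 averaged 324 ± 10.3 CPM in Hep3B, 649 ± 46.3 in HepG2, 430 ± 10.1 in HuH7 and 146 ± 19.7 in PLC/PRF/5. Against the mean it was called, at -0.14, without PLC/PRF/5 replicate 2 (adjusted p = 0.011 in limma's test). The RB pathway list of 23 members does not hold CDKN1A. In it 14 were called higher and 8 lower, 5 and 3 of them by at least 2-fold. The shares over all genes were 37.2%, 36.6%, 12.7% and 12.1%. AXIN1, a scaffold that destroys beta-catenin, differed by -0.71 (SE 0.12, adjusted p = 9.9e-05) and was not called in the fit to all 28 libraries (adjusted p = 0.25). It averaged 5.33 ± 0.327 CPM in Hep3B, 17.1 ± 3.21 in HepG2, 4.38 ± 0.358 in HuH7 and 10.7 ± 1.78 in PLC/PRF/5. Against HuH7 it was not called (0.24, adjusted p = 0.18 in limma's test).

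Mitosis genes were called higher against the mean more often than all genes were, though mostly by less than 2-fold. Of 25 members, 18 were called higher and 2 lower, with 3 higher by at least 2-fold and a median of 0.43. Of all genes, 37.2% were called higher, 36.6% lower and 12.7% higher by at least 2-fold. UBE2C, a ubiquitin-conjugating enzyme of mitotic exit, averaged 427 ± 7.86 CPM in Hep3B. It averaged 92.5 ± 11.5 in HepG2, 279 ± 12.1 in HuH7 and 165 ± 30.8 in PLC/PRF/5. BUB1B, of the spindle checkpoint, averaged 147 ± 6.17 CPM in Hep3B and 105 ± 7.49 in PLC/PRF/5, the next line. TOP2A, the mitotic topoisomerase, averaged 780.1 ± 30 CPM in Hep3B and 586 ± 44.4 in PLC/PRF/5. The list's median was 1.47 against HepG2, 0.05 against HuH7 and -0.13 against PLC/PRF/5, and -0.06 when HepG2 was left out of the mean. DNA replication genes had 11 members higher and 7 lower of 25, with a median of 0.21 that became -0.25 without HepG2. In that list POLA2, a subunit of DNA polymerase alpha, differed by 1.26 and MCM5, of the replicative helicase, by 0.77, both above all other libraries.

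Some amplicons that all 9 other libraries read had next to no reads in the Hep3B cultures. By the rule of 3 reads or fewer in each Hep3B culture and at least 10 CPM in each of the others, the 13 reported here were AKR1B1, MYH9, OSMR, CD9, LIFR, RPS6KA3, SHMT1, HDAC10, DNAJC15, GABRE, LEPROT, TRMU and KIAA0753. OSMR and LIFR, receptor subunits for oncostatin M and leukaemia inhibitory factor, lie side by side on chromosome 5. OSMR had 2, 2 and 1 reads and LIFR had 2, 2 and 2 in Hep3B, against at least 980 and 203 in the other libraries. With GDNF and EGFLAM, each unread in at least 1 other line too, they formed a run of 4 amplicons over 1117.6 kb. RICTOR and WDR70, on its sides, were read in Hep3B. AKR1B1, aldose reductase, had 0 reads in all 3 Hep3B libraries and 213 to 5575 in the others. Measured against the 3-read floor, it was at least 56.7-fold lower than in HuH7, the lowest other line.

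Its neighbours AKR1B10 and AKR1B15 on chromosome 7 were also at 3 reads or fewer in Hep3B. They made a run of 124.3 kb with SLC35B4 and BPGM read on its sides. In PLC/PRF/5 too, AKR1B10 and AKR1B15 had 8 reads or fewer in each library. SHMT1, the cytosolic serine hydroxymethyltransferase, had 0 reads in Hep3B and was at least 71.8-fold lower than in the lowest other line. It lay in a run of 4 amplicons on chromosome 17. Of the others there, EVPLL and TBC1D28 had at most 1 read in each HepG2 and HuH7 library, and LGALS9C at most 11. DNAJC15, a mitochondrial co-chaperone, had 0 reads and was at least 63.3-fold lower. It lay in a run of 9 amplicons on chromosome 13, of which only 4 reached 1 CPM in another line. LEPROT was at least 56.5-fold lower and GABRE, a GABA receptor subunit, at least 44-fold. TRMU, which modifies mitochondrial tRNA, was at least 32.8-fold lower and KIAA0753, a centriolar protein gene, at least 24.9-fold. HDAC10, a deacetylase, had 0, 1 and 0 reads in Hep3B and 173 to 520 in the others. Across the 13 genes, the 4 Hep3B tumours ranged from 0 to 186 reads.

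**Figure D3:**
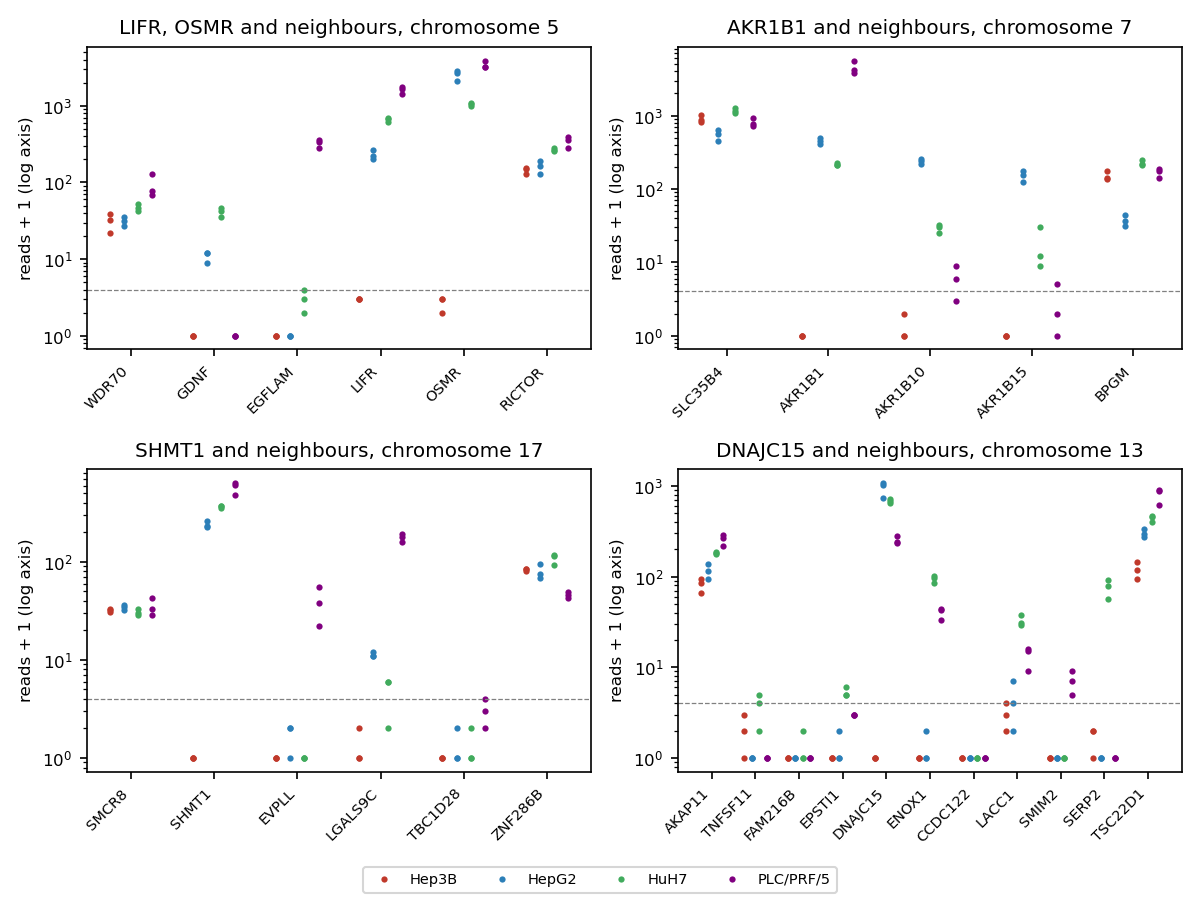
Reads + 1 on a log axis for amplicons in chromosome order around LIFR and OSMR, AKR1B1, SHMT1 and DNAJC15, in every culture library of the 4 lines. The dashed line marks 3 reads. Hep3B lies at or below it through each run, between 2 outer amplicons that are read. Some amplicons within the runs are also at or below it in other lines.

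On the median, hepatocyte secreted proteins were higher in Hep3B than in PLC/PRF/5 but not than in HepG2. Of 23 tested, 18 were called higher in Hep3B and 5 lower, 17 and 3 by at least 2-fold. Of all genes, 37.2% and 36.6% were so called, and 12.7% and 12.1% by that size. The median of the list was 2.73. That excess rests on PLC/PRF/5, which lacks hepatocyte markers: the median was -1.29 against HepG2, 0.37 against HuH7 and 6.51 against PLC/PRF/5, and -0.03 without PLC/PRF/5 in the mean. Called higher than the mean by at least 2-fold, 3 members also lay above all other libraries, against 7.58% of all genes. ALB, serum albumin, was at 94.6, 84.4 and 92.4 CPM in Hep3B, 28.5, 22.4 and 25.1 in HepG2, 65.4, 70.8 and 72.8 in HuH7 and 0 in PLC/PRF/5. The Hep3B libraries were highest, but the step from HuH7 was small. APOA2, of high density lipoprotein, averaged 16244 ± 629.5 CPM in Hep3B, 14018 ± 189.6 in HepG2, 1699 ± 81.9 in HuH7 and 2.59 ± 0.631 in PLC/PRF/5. It was not called against HepG2 (0.21, adjusted p = 0.084 in limma's test). VTN, the plasma adhesion protein vitronectin, averaged 885 ± 59.7 CPM in Hep3B, 400.0 ± 23.8 in HepG2, 394 ± 18.3 in HuH7 and 12 ± 1.91 in PLC/PRF/5.

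AFP, the fetal counterpart of albumin, showed a mid-range level. It was at 169, 179.5 and 183 CPM in Hep3B, 9068, 9256 and 9389 in HepG2, 2213, 2241 and 2209.9 in HuH7 and 0.469, 1.03 and 1.54 in PLC/PRF/5. The lines thus ran HepG2, HuH7, Hep3B and PLC/PRF/5 with no overlap. Its difference from the mean was -0.95 (SE 0.11, adjusted p = 1.8e-06), and it became 1.43 when HepG2 was left out and 0.40 when HuH7 was. APOA1, which builds high density lipoprotein, averaged 898 ± 22.1 CPM in Hep3B, 4578 ± 604 in HepG2, 259.9 ± 7.86 in HuH7 and 0.552 ± 0.308 in PLC/PRF/5. TTR, a thyroid hormone carrier, averaged 97.4 ± 2.13 CPM in Hep3B, 239 ± 10.5 in HepG2, 81.6 ± 5.42 in HuH7 and 0 ± 0 in PLC/PRF/5. SERPINC1, antithrombin, was low in Hep3B, at 1.35 ± 0.196 CPM in Hep3B, 131 ± 4.88 in HepG2, 4.85 ± 0.512 in HuH7 and 0.334 ± 0.0977 in PLC/PRF/5. Without PLC/PRF/5, the differences of APOA1 and TTR turned to -0.28 and -0.52.

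Transcription factors of the hepatocyte showed the same dependence. Of 24 tested, 17 were called higher and 5 lower, beside 37.2% and 36.6% of all genes. Their median of 1.25 was 0.13 against HepG2, -0.12 against HuH7 and 3.34 against PLC/PRF/5. HNF4A, a master regulator of hepatocyte genes, averaged 1098 ± 77.1 CPM in Hep3B, 1304 ± 109 in HepG2, 1089 ± 11.9 in HuH7 and 19 ± 2.78 in PLC/PRF/5. FOXA2, a pioneer factor of liver development whose amplicon lies outside coding sequence, averaged 11.3 ± 0.501 CPM in Hep3B, 10.8 ± 1.38 in HepG2, 15.3 ± 1.24 in HuH7 and 0 ± 0 in PLC/PRF/5. Without PLC/PRF/5 in the mean, the differences of HNF4A and FOXA2 were -0.12 and -0.17. PROX1, a regulator of liver and lymphatic development, did stand above all other libraries, at 954 ± 24 CPM in Hep3B, 352 ± 12.3 in HepG2, 521 ± 20.5 in HuH7 and 0.316 ± 0.161 in PLC/PRF/5. So did ONECUT1, which acts in liver and biliary development, at 252 ± 12.8 CPM in Hep3B, 32.4 ± 3.43 in HepG2, 143 ± 7.55 in HuH7 and 0.124 ± 0.0143 in PLC/PRF/5, and RXRA, the shared nuclear receptor partner, with a difference of 1.54.

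Lists of more specialised liver functions also differed in median between the lines. Their counts of called members stand beside 37.2% of all genes called higher and 36.6% lower. Among 20 apolipoprotein and lipoprotein genes, 12 were called higher and 8 lower, with APOE at 322 ± 19.9 CPM in Hep3B, 202 ± 10.1 in HepG2, 84.3 ± 9.09 in HuH7 and 0.499 ± 0.358 in PLC/PRF/5. Among 21 coagulation genes, 15 were higher and 5 lower, and F7, the starter of the extrinsic pathway, averaged 788 ± 43.2 CPM in Hep3B, 189.8 ± 19.2 in HepG2, 311 ± 8.61 in HuH7 and 0.45 ± 0.125 in PLC/PRF/5. Among 20 complement genes, 11 were higher and 6 lower, with SERPING1, the C1 inhibitor, at 120.2 ± 7.09 CPM in Hep3B, 16.1 ± 1.13 in HepG2, 20.5 ± 2.17 in HuH7 and 0.412 ± 0.179 in PLC/PRF/5. The medians of these lists were 1.39, 0.57 and 0.73, and -0.52, -0.82 and -0.03 without PLC/PRF/5. Urea cycle and amino acid catabolism genes had 11 higher and 3 lower of 15. Their median was -1.16 against HepG2, 0.93 against HuH7 and 3.39 against PLC/PRF/5. HAL, which breaks down histidine, averaged 109 ± 5.94 CPM in Hep3B and 14.6 ± 2.05 in HuH7, the next line. Bile acid genes had 8 higher and 4 lower of 15, with a median of -1.62 against HepG2, 0.11 against HuH7 and 1.72 against PLC/PRF/5. Among them CYP7B1, an oxysterol hydroxylase, averaged 21.1 ± 2.07 CPM in Hep3B and 0.751 ± 0.217 or less elsewhere. Of 13 acute phase genes, 4 were higher and 9 lower. Their median was -2.68 against HepG2, -0.24 against HuH7 and 2.82 against PLC/PRF/5, and that against the mean turned from -0.76 to 0.17 without HepG2. Of 13 drug metabolism genes, 3 were higher and 6 lower. CYP3A5 had 0 reads in each Hep3B culture, and averaged 3.24 ± 0.954 CPM in HepG2, the highest line.

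**Figure D4:**
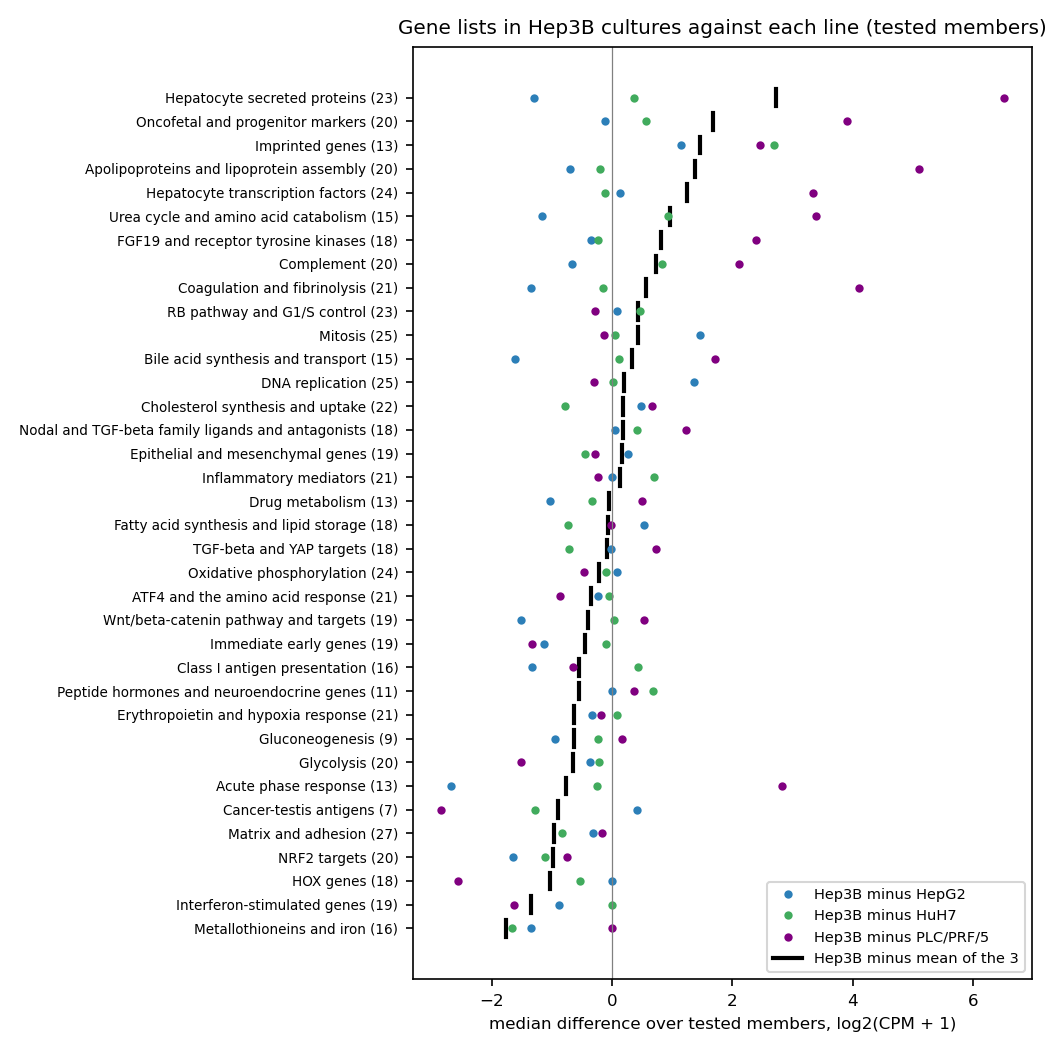
Median difference on the log2(CPM + 1) scale over the tested members of each of 36 gene lists (number tested in brackets). Points give Hep3B minus HepG2, HuH7 and PLC/PRF/5 and the black bar Hep3B minus their mean; for hepatocyte secreted proteins the points run from -1.29 to 6.51, whereas for NRF2 targets all 3 are below 0.

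Imprinted genes, which are expressed from 1 parental copy, were called higher in Hep3B than the mean of the lines, though not than each line. All 13 tested members were called higher than the mean by limma, against 37.2% of all genes. edgeR and DESeq2 called 0 and 0 of the members lower. By size, 8 were higher by at least 2-fold and 5 of these lay above all other libraries, against 12.7% and 7.58% of all genes. The median was 1.47, and 1.15 against HepG2, 2.69 against HuH7 and 2.46 against PLC/PRF/5. By at least 2-fold, 7, 11 and 10 members were higher than in HepG2, HuH7 and PLC/PRF/5, against 16.1%, 12.4% and 21.1% of all genes. By the same size, 3, 1 and 0 were lower, against 15.9%, 14.1% and 17.5%. The members lower than in HepG2 were PEG3, PEG10 and ZIM2, and the member lower than in HuH7 was MEST, all named after their values were seen. IGF2, a fetal growth factor, was at 65588, 76459 and 69033 CPM in Hep3B and 11699, 15880.4 and 14131 in HepG2. It was at 6292, 6471 and 6023 CPM in HuH7 and 5.28, 5.82 and 15.3 in PLC/PRF/5, so the lines were well separated. Its difference was 6.26 (SE 0.21, adjusted p = 1.5e-12), and its amplicon matches 3 annotated genes, among which reads cannot be divided. CDKN1C, the growth inhibitor p57, averaged 76.2 ± 1.36 CPM in Hep3B, 0 ± 0 in HepG2, 0.627 ± 0.33 in HuH7 and 13.3 ± 3.19 in PLC/PRF/5. SNRPN, a splicing protein gene whose amplicon matches 2 annotated genes, averaged 446 ± 14.4 CPM in Hep3B, 239 ± 5.76 in HepG2, 0.0399 ± 0.069 in HuH7 and 107 ± 12.3 in PLC/PRF/5. SGCE, a sarcoglycan, averaged 17.1 ± 1.4 CPM in Hep3B, 3.29 ± 0.224 in HepG2, 1.81 ± 0.12 in HuH7 and 0.124 ± 0.0143 in PLC/PRF/5.

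Of 20 oncofetal and progenitor markers, 16 were called higher and 3 lower, against 37.2% and 36.6% of all genes, with a median of 1.68. The median was -0.12 against HepG2, 0.56 against HuH7 and 3.91 against PLC/PRF/5. PROM1, the surface marker CD133, averaged 950.0 ± 22.6 CPM in Hep3B, 108 ± 6.65 in HepG2, 225 ± 5.55 in HuH7 and 0.698 ± 0.125 in PLC/PRF/5. EPCAM, an adhesion molecule of epithelial progenitors, averaged 491 ± 8.04 CPM in Hep3B, 209 ± 8.28 in HepG2, 102 ± 2.87 in HuH7 and 36 ± 3.42 in PLC/PRF/5. MDK, the growth factor midkine, averaged 498 ± 9.33 CPM in Hep3B, 193 ± 5.5 in HepG2, 312 ± 5.76 in HuH7 and 0.248 ± 0.0287 in PLC/PRF/5. These 3 lay above all other libraries, unlike GPC3, a fetal liver proteoglycan, which averaged 1885 ± 44.2 CPM in Hep3B, 9073 ± 775 in HepG2, 1374 ± 52.4 in HuH7 and 0.719 ± 0.45 in PLC/PRF/5. Without PLC/PRF/5 the difference of GPC3 turned from 2.78 to -0.90.

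Secreted signals formed another contrast. DKK1, a secreted Wnt antagonist, was at 33915, 38457 and 34940.4 CPM in Hep3B. It was at 1768, 2105 and 1849.6 in HepG2, 2688, 2672 and 2619 in HuH7 and 964, 694 and 934 in PLC/PRF/5, each far below Hep3B. The difference was 4.45 (SE 0.10, adjusted p = 1.4e-14). Of the 19 Wnt genes tested, DKK1 among them, 6 were called higher and 11 lower, 4 and 3 by at least 2-fold. Over all genes the shares were 37.2%, 36.6%, 12.7% and 12.1%. LEF1, a transcription factor of the pathway, also lay above all other libraries, at 4.15 ± 0.764 CPM in Hep3B, 0.637 ± 0.107 in HepG2, 0.325 ± 0.363 in HuH7 and 1.6 ± 0.783 in PLC/PRF/5. AXIN2, a feedback target of beta-catenin, averaged 5.96 ± 0.811 CPM in Hep3B, 401 ± 37.9 in HepG2, 5.75 ± 0.432 in HuH7 and 3.98 ± 1.51 in PLC/PRF/5. LGR5, a Wnt-potentiating receptor, averaged 30.2 ± 1.29 CPM in Hep3B, 175 ± 3.34 in HepG2, 0.883 ± 0.211 in HuH7 and 0.241 ± 0.198 in PLC/PRF/5. The Wnt median was -1.50 against HepG2, 0.04 against HuH7 and 0.53 against PLC/PRF/5.

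FGF19, a hormone that restrains bile acid synthesis, was shared with HuH7, at 31.1 ± 1.38 CPM in Hep3B, 0.631 ± 0.292 in HepG2, 29.6 ± 2.29 in HuH7 and 0.0468 ± 0.081 in PLC/PRF/5. FGFR2, an FGF receptor, had 379, 369 and 424 reads in Hep3B and 14 or fewer in each other library, a difference of 5.10 (SE 0.15, adjusted p = 4.8e-13). MST1R, the receptor of macrophage stimulating protein, was at 0.0439 ± 0.076 CPM in Hep3B and 43.9 ± 4.28 in PLC/PRF/5. In that list of FGF19 and receptor tyrosine kinases, 12 of 18 were called higher and 5 lower, beside 37.2% and 36.6% of all genes. EPO, erythropoietin, averaged 7.5 ± 1.63 CPM in Hep3B, 14.3 ± 0.289 in HepG2, 1.91 ± 0.624 in HuH7 and 0.153 ± 0.174 in PLC/PRF/5: Hep3B was below HepG2 and above the other 2 lines. Its list with the hypoxia response was divided, with 9 of 21 called higher and 11 lower. CA12, a carbonic anhydrase, averaged 36.4 ± 3.69 CPM in Hep3B, 0.207 ± 0.18 in HepG2, 28.5 ± 0.829 in HuH7 and 3.2 ± 0.449 in PLC/PRF/5, whereas NDRG1, a stress-responsive gene, averaged 10.8 ± 1.38 CPM in Hep3B, 122 ± 13.5 in HepG2, 45.4 ± 1.29 in HuH7 and 191 ± 22.7 in PLC/PRF/5.

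Inflammatory mediators went both ways. Of 21 tested, 11 were called higher and 10 lower, 9 and 6 by at least 2-fold. The shares over all genes were 37.2% and 36.6%, and 12.7% and 12.1% by that size. The median of 0.14 became -0.19 without HuH7. CXCL5, a chemokine, was at 138, 128 and 132 CPM in Hep3B against 31.9, 32.6 and 31.9 in HuH7, with a mean of 0.153 ± 0.174 or less in the other 2 lines. CXCL6, another chemokine, averaged 51 ± 2.51 CPM in Hep3B, 0 ± 0 in HepG2, 8.2 ± 0.733 in HuH7 and 0.0468 ± 0.081 in PLC/PRF/5. CXCL8, interleukin 8, averaged 38.5 ± 1.77 CPM in Hep3B, 2.53 ± 0.939 in HepG2, 7.82 ± 0.986 in HuH7 and 4.35 ± 0.431 in PLC/PRF/5. IL32, an inflammatory cytokine, went the other way, at 49.9 ± 0.485 CPM in Hep3B, 468 ± 39.1 in HepG2, 463 ± 20.5 in HuH7 and 397 ± 31.2 in PLC/PRF/5. Within the Nodal and TGF-beta family, 8 of 18 were called higher and 4 lower. INHBE, an activin subunit made in liver, averaged 454 ± 30.3 CPM in Hep3B, 106 ± 3.88 in HepG2, 329 ± 1.99 in HuH7 and 71.6 ± 11.3 in PLC/PRF/5, and INHA, the inhibin alpha subunit, 1.58 ± 0.436 CPM in Hep3B, 12.4 ± 1.53 in HepG2, 18 ± 1.81 in HuH7 and 7.66 ± 1.91 in PLC/PRF/5. LEFTY1, a Nodal antagonist like CER1, was not called, at 2.35 ± 1.16 CPM in Hep3B, 3.28 ± 0.415 in HepG2, 3.7 ± 0.233 in HuH7 and 0.163 ± 0.0633 in PLC/PRF/5. It was called higher without Hep3B replicate 1 (0.43, adjusted p = 0.014 in limma's test) and by edgeR (0.85, adjusted p = 0.020). Of 29 peptide hormone and neuroendocrine genes on the panel, NTS and CGA among them, 11 were tested, 5 called higher and 6 lower. PTHLH, the parathyroid hormone-related peptide, averaged 11.6 ± 1.71 CPM in Hep3B and 0.294 ± 0.158 or less in each other line.

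NRF2 targets, the genes of the antioxidant response, were lower in Hep3B than in each other line on the median. Of 20 tested, 18 were called lower and 0 higher, 10 lower by at least 2-fold and 8 of these below all other libraries, against 36.6%, 12.1% and 5.17% of all genes. At an unadjusted p under 0.05 in limma's test 0 of the 20 were higher, and edgeR and DESeq2 called 0 and 0 higher. The median was -0.98, and -1.65 against HepG2, -1.11 against HuH7 and -0.75 against PLC/PRF/5. By at least 2-fold, 0, 0 and 3 members were higher than in HepG2, HuH7 and PLC/PRF/5, where 16.1%, 12.4% and 21.1% of all genes were, and 11, 11 and 9 were lower, against 15.9%, 14.1% and 17.5%. NQO1, a quinone reductase and standard NRF2 target, averaged 5.93 ± 0.937 CPM in Hep3B, 493 ± 26.8 in HepG2, 364 ± 7.25 in HuH7 and 182 ± 5.94 in PLC/PRF/5. AKR1C1, an aldo-keto reductase, averaged 3.82 ± 0.0986 CPM in Hep3B, 3772 ± 124 in HepG2, 222 ± 3.53 in HuH7 and 174 ± 40.3 in PLC/PRF/5, and its close relative AKR1C2 0.482 ± 0.278 CPM in Hep3B, 543 ± 46.5 in HepG2, 33.1 ± 0.709 in HuH7 and 17.2 ± 2.63 in PLC/PRF/5. AKR1C genes are near-identical copies, so their reads may be divided unevenly. SLC7A11, the cystine transporter that supplies glutathione synthesis, averaged 9.96 ± 1.21 CPM in Hep3B, 51.7 ± 0.496 in HepG2, 23.2 ± 1.79 in HuH7 and 57.9 ± 6.44 in PLC/PRF/5.

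Lists of metal, amino acid and sugar genes had negative medians against the mean. Of 16 metallothionein and iron genes, 11 were called lower and 4 higher, 9 and 3 by at least 2-fold. Of all genes, 36.6% were called lower and 37.2% higher, and 12.1% and 12.7% by that size. The median of the metal list was -1.34 against HepG2, -1.66 against HuH7 and 0.00 against PLC/PRF/5. MT1F, which binds zinc and copper, had 1 read in all in Hep3B and averaged 74.8 ± 4.51 CPM in HuH7 and 1.43 ± 0.706 in PLC/PRF/5. MT2A averaged 1.43 ± 0.614 CPM in Hep3B, 54.6 ± 3.98 in HepG2, 8.88 ± 1.32 in HuH7 and 22.7 ± 8.47 in PLC/PRF/5. Metallothionein genes too are close copies. Of 21 ATF4 and amino acid response genes, 10 were lower and 5 higher, with a median of -0.23 against HepG2, -0.04 against HuH7 and -0.86 against PLC/PRF/5. SLC7A5, a transporter of large neutral amino acids, averaged 474 ± 15.6 CPM in Hep3B, 1695 ± 74.8 in HepG2, 1017 ± 28.7 in HuH7 and 6962 ± 602 in PLC/PRF/5, and PHGDH, the first enzyme of serine synthesis, 64.9 ± 2.48 CPM in Hep3B, 227 ± 17.3 in HepG2, 251 ± 13 in HuH7 and 154 ± 21.1 in PLC/PRF/5. Of 20 glycolysis genes, 16 were lower and 3 higher, with a median of -0.64 that was -0.36 against HepG2, -0.22 against HuH7 and -1.51 against PLC/PRF/5. GPI, the second enzyme of glycolysis, averaged 92.3 ± 0.799 CPM in Hep3B, 151 ± 12.1 in HepG2, 156 ± 9.41 in HuH7 and 484 ± 114 in PLC/PRF/5. LDHA, which makes lactate, differed by -0.88 (SE 0.19, adjusted p = 6.4e-04), and its difference without PLC/PRF/5 was -0.35, no longer called. It was not called in the fit to all 28 libraries either (adjusted p = 0.25). Of 24 oxidative phosphorylation genes, 8 were higher and 11 lower.

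Lipid genes did not move as a group against the mean, but their medians differed by line. Of 22 cholesterol genes 9 were higher and 4 lower, and of 18 fatty acid and lipid storage genes 6 and 7. Of all genes, 37.2% were higher and 36.6% lower. The cholesterol median was 0.48 against HepG2, -0.777 against HuH7 and 0.665 against PLC/PRF/5. That of the fatty acid list was 0.54, -0.732 and -0.01 in the same order. PLIN2, the main coat protein of hepatocyte lipid droplets, averaged 3472 ± 94.9 CPM in Hep3B, 1603 ± 83.9 in HepG2, 517 ± 13 in HuH7 and 0.249 ± 0.122 in PLC/PRF/5. LPIN1, a phosphatidate phosphatase, averaged 8.57 ± 0.147 CPM in Hep3B, 65.1 ± 1.98 in HepG2, 97.6 ± 6.58 in HuH7 and 40.6 ± 4.46 in PLC/PRF/5. TM7SF2, a sterol reductase, averaged 238 ± 8.52 CPM in Hep3B, 77.8 ± 8.56 in HepG2, 53.4 ± 5.49 in HuH7 and 6.21 ± 1.03 in PLC/PRF/5. PLTP, the phospholipid transfer protein, averaged 24.3 ± 1.1 CPM in Hep3B and 56.6 ± 2.28 or more elsewhere.

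Lists of matrix, early response, interferon and antigen presentation genes also had negative medians against the mean, beside the 36.6% of all genes called lower and 37.2% higher. Of 27 matrix and adhesion genes, 18 were called lower and 5 higher, 12 and 1 by at least 2-fold. By that size, 12.1% of all genes were lower and 12.7% higher. The median of the matrix list was -0.31 against HepG2, -0.83 against HuH7 and -0.16 against PLC/PRF/5. COL6A1, a collagen VI chain, averaged 1.13 ± 0.176 CPM in Hep3B, 122 ± 11.8 in HepG2, 70.5 ± 5.49 in HuH7 and 96 ± 4.97 in PLC/PRF/5. TIMP1, an inhibitor of matrix proteases, averaged 17.3 ± 2.36 CPM in Hep3B, 273 ± 20.5 in HepG2, 53.2 ± 2.99 in HuH7 and 640.2 ± 87.2 in PLC/PRF/5. ITGA3, a laminin-binding integrin, averaged 5.46 ± 0.781 CPM in Hep3B, 15.9 ± 0.698 in HepG2, 19.7 ± 2.02 in HuH7 and 756 ± 98.5 in PLC/PRF/5. Of 19 immediate early genes, 12 were lower and 5 higher, and the median was -1.12 against HepG2, -0.10 against HuH7 and -1.32 against PLC/PRF/5. Among them was FOS, an AP-1 subunit, at 8.51 ± 1.55 CPM in Hep3B, 61.8 ± 7.84 in HepG2, 12.8 ± 1.35 in HuH7 and 192 ± 6.05 in PLC/PRF/5. FOSB averaged 5.38 ± 1.11 CPM in Hep3B, 72.6 ± 6.24 in HepG2, 37.5 ± 5.62 in HuH7 and 84.9 ± 2.81 in PLC/PRF/5. Of 16 class I antigen presentation genes, 10 were lower and 4 higher, but their median was -1.34 against HepG2, 0.43 against HuH7 and -0.64 against PLC/PRF/5. By at least 2-fold, 6 of them were higher and 0 lower than in HuH7, against 12.4% and 14.1% of all genes. Of 19 interferon-stimulated genes, 13 were lower and 2 higher. ISG15, a ubiquitin-like protein, averaged 17.5 ± 2.6 CPM in Hep3B, 32.9 ± 0.942 in HepG2, 39.7 ± 1.23 in HuH7 and 86.6 ± 21.4 in PLC/PRF/5. The interferon median was -0.89 against HepG2, 0.00 against HuH7 and -1.63 against PLC/PRF/5.

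Epithelial and mesenchymal genes went both ways, with 10 of 19 higher and 7 lower. Here and for the next lists, 37.2% of all genes were called higher and 36.6% lower. CLDN4, a tight junction protein, averaged 0.238 ± 0.136 CPM in Hep3B, 344 ± 25 in HepG2, 4.01 ± 0.875 in HuH7 and 152 ± 19.6 in PLC/PRF/5, in contrast to ESRP1 above. Of 18 HOX genes tested, 14 were lower and 3 higher. Their median was 0.00 against HepG2, -0.53 against HuH7 and -2.56 against PLC/PRF/5. HOXA7, 1 of those higher, averaged 37.6 ± 1.49 CPM in Hep3B, 2.26 ± 0.55 in HepG2, 27 ± 2.28 in HuH7 and 20.9 ± 0.515 in PLC/PRF/5. TGF-beta and YAP targets had 8 higher and 8 lower of 18, with THBS1, thrombospondin, at 493 ± 12.9 CPM in Hep3B, 267 ± 18.1 in HepG2, 188 ± 7.75 in HuH7 and 25.9 ± 3.07 in PLC/PRF/5. Gluconeogenesis genes had 3 higher and 5 lower of 9. Cancer-testis antigens had 2 higher and 4 lower of 7 tested, of 23 on the panel.

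Differences also ran along chromosomes. Median differences per chromosome lay between -0.55 for X and 0.35 for chromosome 11, beside 0.01 over all genes. Among 285 windows of 10 Mb with at least 10 genes, medians ran from -0.97 to 1.21, with a middle range of -0.22 to 0.19. The lowest window was chromosome 13 from 40 to 50 Mb, which holds RB1 and DNAJC15. Of its 39 genes, 92.3% were called lower, against 36.6% of all genes. Its median was -0.93 against HepG2, -1.04 against HuH7 and -1.22 against PLC/PRF/5. Windows of the X chromosome from 0 to 10 Mb and from 40 to 50 Mb had medians of -0.96 and -0.81. The first was -0.95 against HepG2, -1.46 against HuH7 and -0.06 against PLC/PRF/5. The other was -0.405, -1.22 and -0.925 in the same order. The highest window was chromosome 4 from 30 to 40 Mb, with 17 genes and a median of 1.21. On chromosome 11 from 60 to 70 Mb, 78.9% of 194 genes were called higher, against 37.2% of all genes, with a median of 0.86. These are descriptions of position with no test, and copy number was not measured.

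**Figure D5:**
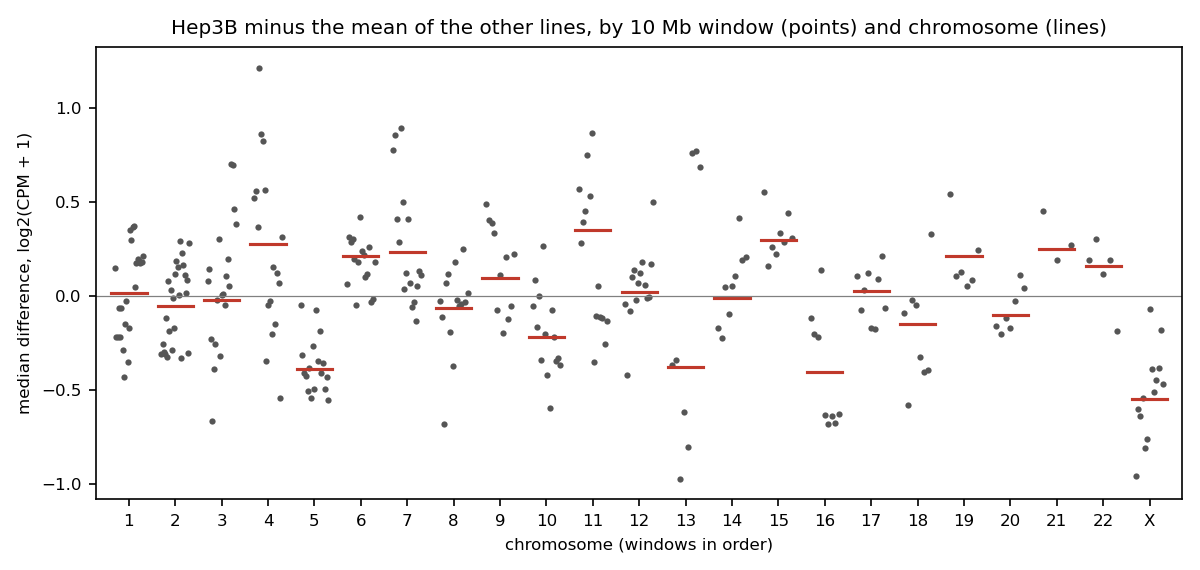
Median difference (log2(CPM + 1), Hep3B minus the mean of the other lines) in 285 windows of 10 Mb, as points in order along each chromosome, with red lines for the chromosome medians. The lowest point, -0.97, is on chromosome 13 and the highest, 1.21, on chromosome 4.

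Some differences between the cultures were not those between the tumours of the same lines. In a fit to all 28 libraries, 3360 of 13100 genes (25.6%) had a culture difference that was called different from the tumour difference. With a called difference between the settings, 332 (2.53% of the 13100 genes) were called in opposite directions in cultures and tumours. RNA of cultures and of tumours was purified with different kits, so the setting and the kit cannot be told apart. CER1 was at 139 ± 4.15 CPM in the Hep3B cultures and 2.98 ± 2.05 in the 4 Hep3B tumours on the scaling of that fit. In HuH7 it was at 0.284 ± 0.0576 and 95.1 ± 32.5, so it was high in the cultures of 1 line and the tumours of the other. SERPINC1 was at 1.14 ± 0.164 CPM in Hep3B cultures, and at 514, 625, 628 and 928 in the tumours. Its difference from the other lines was -2.08 in cultures and 5.46 in tumours. CXCL8 had the opposite order, with 32.5 ± 1.49 CPM in Hep3B cultures and 0.439 ± 0.124 in tumours.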

How the data were processed

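RNA of 4 liver tumour lines was extracted, cultures with RNeasy mini columns and tumours with midi columns, and 500 ng of total RNA per library went into a DriverMap targeted panel, per the labels' protocols. The deposited values are a signal per amplicon that the authors scaled to 500000 per library. The submitters' processing notes name hg38. How reads were aligned and counted is not stated in the sources at hand. Doubling the deposited signal gave CPM. The steps of low values gave whole reads for at least 99.9846% of culture values (within 0.01 of a read). No value column lacked a sample, 26 date-altered symbols were restored, and 6 duplicated symbols were renamed.

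Amplicons were matched to GENCODE 29 transcripts on GRCh38; 18849 were placed and 112 not. Genes were kept by filterByExpr by group (at least 10 reads; edgeR 4.0.16), scaled by TMM and tested with limma 3.58.1 (trended variance, log2(CPM + 1)) in a fit of the 12 cultures to 4 groups, with 8 residual degrees of freedom. Benjamini-Hochberg adjustment covered all genes tested. Interaction terms came from 28 libraries in 8 groups. The same test, run on simulated reads with known changes, was checked before use. edgeR and DESeq2 1.42.0 on the recovered reads, other scalings, filters and pseudocounts, and each library and line left out in turn were alternatives. Replicate numbers did not pair the cultures.

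Members and the 37 gene lists were chosen with earlier results of these data known. Named genes are 24 key genes (23 on the panel), the 12 highest and 12 lowest called genes lying outside all other libraries at 10 CPM or more, up to 4 such members per list, 8 genes called oppositely in tumours, and genes at 3 reads or fewer in Hep3B cultures but at least 10 CPM elsewhere. Sequences were printed for the first 3 reported coding amplicons per direction. Results on some genes and 1 gene list are not reported here.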

Additional observations from a re-analysis of the deposited data

Results flagged for a closer look

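The difference between Hep3B and the other lines was itself not the same in cultures and tumours for 3360 of 13100 genes, by the interaction term of limma's fit to 28 libraries. Single genes named for opposite calls in the 2 settings had these values of the culture difference minus the tumour difference, on the log2(CPM + 1) scale. SERPINC1, antithrombin, had -7.54 (SE 0.26, adjusted p = 3.5e-16). ABCG8, a sterol exporter, had -6.65 (SE 0.27, adjusted p = 4.9e-15), with 0.128 ± 0.137 CPM in Hep3B cultures and 241, 309, 458 and 394 in the 4 Hep3B tumours. AGR2, a secretory pathway protein, had -6.08 (SE 0.27, adjusted p = 2.6e-14), with 0.0894 ± 0.0775 CPM in Hep3B cultures and 150.1, 113, 104 and 143 in tumours. CER1 had 7.39 (SE 0.36, adjusted p = 1.1e-13). PRODH2, which breaks down hydroxyproline, had -5.63 (SE 0.28, adjusted p = 2.3e-13), with 0.543 ± 0.0145 CPM in Hep3B cultures and 73.7, 112, 166 and 113 in tumours. CPS1, the first enzyme of the urea cycle, had -4.48 (SE 0.24, adjusted p = 4.9e-13), with 6.1 ± 0.369 CPM in Hep3B cultures and 268, 199.7, 190.3 and 428 in tumours. MYO10, a myosin of cell protrusions, had 3.63 (SE 0.20, adjusted p = 1.3e-12), with 72.9 ± 2.03 CPM in Hep3B cultures and 3.09, 3.27, 4.4 and 3.47 in tumours. CXCL8 had 3.82 (SE 0.22, adjusted p = 3.8e-12). edgeR did not call the interactions of ABCG8 and PRODH2 (adjusted p = 0.99988 for both), in which some groups have no reads, nor the culture difference of ABCG8 (adjusted p = 0.998448). The culture difference of PRODH2 turned to 1.91 in edgeR (adjusted p = 0.020) and 1.55 in DESeq2 (adjusted p = 0.044), so its calls were then not opposite. That of MYO10 turned to -0.875 without HuH7, and that of CPS1 to 0.204 without PLC/PRF/5. In all 8 genes the 4 Hep3B tumours lay on 1 side of the 3 Hep3B cultures. Choosing genes by the smallest interaction p values of limma's fit favours such a separation. Extraction kit and setting cannot be told apart. Among 32 groups of 4 tumours checked for these genes, 0 held a library far from the others by Dixon's criterion, which chance would flag in about 1 of 20.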

How the results depend on the processing

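Of 163 single-gene differences and interactions, 137 kept direction and side of the threshold under every alternative run. In a fit to all 28 libraries, genes called were 2560 higher and 2761 lower against the mean, 2545 and 2690 against HepG2, 2045 and 2407 against HuH7 and 3262 and 2827 against PLC/PRF/5. Requiring at least 2-fold gave 1574 and 1493, 1997 and 1971, 1539 and 1742, and 2610 and 2172. Genes lower than the mean by at least 2-fold and below all other libraries were 400 with a pseudocount of 5 CPM. They were 1068 without HepG2, 1042 without HuH7 and 1085 without PLC/PRF/5. Those above were 1511 without HuH7; with fewer lines, fewer libraries have to be passed. Interactions called were 5066 (528 opposite) with total reads alone and 2117 (207) with edgeR. The cause was not tested.

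Leaving out 1 library at a time gave 4286 to 4663 genes higher and 4291 to 4806 lower against the mean, and 928 to 1011 above and 638 to 681 below all others. Interactions ranged from 2480 to 4537, and opposite calls from 237 to 448. None of these moved by over 1.5 times. Without PLC/PRF/5 replicate 2, the library that stood apart, 4663 genes were higher and 4806 lower, a choice made after seeing the data.

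Replicate numbers did not pair the samples: deviations of same-numbered cultures correlated at -0.327 to 0.160, and 3 of 12 libraries were closest to their own number. With the replicate block, 4545 genes were higher, 4454 lower, 938 above and 640 below, and 3712 interactions were called.

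Median differences that turned sign were those of Bile acid synthesis with no filter (-0.0424) and peptide hormones at 10 CPM or more (0.867). Without HepG2 they were Mitosis (-0.0648), DNA replication (-0.246), Wnt (0.191), cholesterol (-0.139), acute phase (0.168) and epithelial and mesenchymal genes (-0.327). Without HuH7 they were fatty acid (0.273), inflammatory (-0.194) and TGF-beta and YAP genes (0.731). Without PLC/PRF/5 they were hepatocyte secreted proteins (-0.0295), bile acid (-0.658), apolipoproteins (-0.522), coagulation (-0.822), complement (-0.0329), receptor tyrosine kinases (-0.137) and cholesterol genes (-0.130), while that of cancer-testis genes became 0. Single genes that did were PRODH2 (edgeR 1.91, DESeq2 1.55, limma-voom 0.772, without HepG2 0.717), CCND1 (0.373), AFP (1.43) and AXIN2 (0.283) without HepG2. Without HuH7 they were AFP (0.403) and MYO10 (-0.875). Without PLC/PRF/5 they were GPC3 (-0.904), APOA1 (-0.278), TTR (-0.517), HNF4A (-0.119), FOXA2 (-0.174), LEFTY1 (-0.477) and CPS1 (0.204). Depth limits only genes near the 3-read floor.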
